A study of Mus musculus with 6 samples.

Results

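The miR-297, miR-466, miR-467 and miR-669 families are 4 groups of closely related rodent microRNAs (miRNAs), most of them made from a long array of repeated hairpins inside an intron of Sfmbt2. Every miRNA name of these families on the array was taken, both arms of the hairpin and without regard to signal, other than names that carried a version tag of an older registry. The choice gave 38 of the 690 miRNA names measured: 3 of miR-297, 12 of miR-466, 10 of miR-467 and 13 of miR-669. Of these, 16 were 5p arms, 13 were 3p arms and 9 had no arm in the name. The 3 names left out for their version tag are described at the end.

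The miRNAs were measured on 1-colour arrays in sorted cells of transgenic mice that carried GFP driven by the smooth muscle actin (SMA) promoter. That promoter is active in contractile cells such as myofibroblasts and vascular smooth muscle. All sorted cells lacked CD45, a surface protein of blood cells, and CD31, a surface protein of endothelium. The skin group, titled GFP(low) and labelled as fibroblast-like cells of the dermis, comprised preparations 1, 2 and 5. The wound group, titled GFP(high), came from wounds at day 7 after injury and comprised preparations 3, 4 and 6. Tissue and GFP level changed together between the groups and cannot be told apart. The labels give neither the age of the mice nor whether a preparation was 1 animal or a pool, so p-values reflect how far the preparations differ, and part of that may be technical. In sorted cells measured in bulk, fewer cells of a type and less RNA per cell cannot be told apart.

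Sfmbt2 encodes a Polycomb-group protein and is an imprinted gene, transcribed from the paternal copy, with its main known role in the placenta. The miRNA array in its intron is found in rodents and is highly expressed in placenta and embryonic stem cells; mice that lack it have small placentas. Its hairpins arose by repeated duplication, so mature members often differ by a few bases and share runs of alternating purine and pyrimidine. Probes for such members may bind each other's targets, so the assignment of a signal to 1 name within these families is uncertain.

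The gene order in the RefSeq table of assembly GRCm38.p6 was compared with the label of an Sfmbt2 cluster. Within Sfmbt2 that table held 72 miRNA genes, 71 of which belonged to the 4 families. Of the 38 members, 28 had genes only within Sfmbt2 and 3 had copies both there and elsewhere. The label did not hold for 6 members, whose genes lay only outside Sfmbt2. Among them, miR-466i lay within Cdk13, miR-467f within Fxr2, miR-467g within Grk4, miR-669n within Slc30a7 and miR-466k within Gm31419, while miR-466j lay in no listed gene. For miR-466a-5p no gene was matched. Of the members with signal above background, 11 were of the Sfmbt2 array only, 2 (miR-297a-3p and miR-466f-3p) of both kinds and 4 of other loci.

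Mature sequences from RefSeq (GRCm38.p6) matched 6 of the 38 members, which were the 6 with genes only outside Sfmbt2. They are shown for their base composition, which need not be that of the members within Sfmbt2. Capitals mark the seed (bases 2 to 8), the stretch that pairs with target mRNAs.
miR-466i-3p: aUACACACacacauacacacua
miR-467f: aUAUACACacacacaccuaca
miR-467g: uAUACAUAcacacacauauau
miR-669n: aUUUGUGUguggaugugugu
miR-466j: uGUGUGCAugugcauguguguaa
miR-466k: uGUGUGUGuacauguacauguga

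The sequences fell into 2 kinds. A or C made up 86.4% of miR-466i-3p, 85.7% of miR-467f and 71.4% of miR-467g, and none of these contained G. G or U made up 90.0% of miR-669n, 73.9% of miR-466j and 69.6% of miR-466k, and miR-669n contained no C. Each of the 6 seeds occurred in no other mature sequence of the table. That table lacks the sequences of the other members, so seeds shared with those could not be seen. As given 5′ to 3′, on the RNA strand only, ACACAC occurred in the first 3 and in 7 of the 534 array names with a sequence (1.31%). AUACAC, which can overlap ACACAC, was in the same 3 members and in 9 names (1.69%). UGUGUG was in miR-669n, miR-466j and miR-466k and in 12 names (2.25%). AUAUAU was in 1 member, miR-467g, and in 3 names (0.562%). The A- and C-rich members carried names of the miR-466 and miR-467 families and the G- and U-rich ones of miR-466 and miR-669. Among these 6, the number miR-466 thus occurred with both kinds of sequence. The arm was not separated from this, since miR-466i-3p is a 3p arm and miR-466j and miR-466k have no arm in the name.

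Levels are given as a percentage of the array's reference signal, its 75th percentile among the 275 probes that every array measured well above background. That reference lay between 786 and 1772 intensity units, where the local background had medians of 49.0 to 55.5. Between 187 and 233 names were above background per array. Of the fixed cell type markers, all 6 mesenchymal miRNAs were detected, with a summed level of 1923% to 2406% in skin and 3163% to 3372% in wound. In skin, 2 of the 7 keratinocyte markers were detected (miR-203-3p and miR-205-5p), and the summed level of the 7 was 11.9%, 20.3% and 13.0% on skin 1, 2 and 5 against 0.505% to 0.920% in wound. Of the 6 blood markers 1 was detected (miR-451a; sum 1.60% to 3.56%), of the 2 endothelial markers 1 (miR-126-3p; sum 3.63% to 7.73%) and of the 5 striated muscle markers on the array 0. The part of these cells in the results below was not tested.

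Of the 38 members, 17 (44.7%) were well above background on at least 1 array, against 39.7% of all names on the array. Well above background means that over 50% of the spots of at least 1 probe carried the scanner's flag. On all 6 arrays 6 members were detected, against 22.6% of all names; 11 were detected on some arrays and 21 on none. The levels measured for those 21 lay between -0.851% and 1.75%.

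The number of detected members overlapped between the groups. In skin, 7 members were detected on preparation 1, 10 on preparation 2 and all 17 on preparation 5 (11.3 ± 5.13, SD, n = 3). In wound, 8 were detected on preparation 3, 10 on preparation 4 and 6 on preparation 6 (8.00 ± 2.00, SD, n = 3). Skin 5 stood highest and wound 6 lowest, and the ranges of the groups overlapped. Over all names on the array wound 6 was not the poorest, with 218 detected names against 187 on skin 1, and skin 5 had 224 against 233 on wound 4. The SD of the negative control spots was 31.1, 9.90 and 5.84 intensity units on skin 1, 2 and 5. On wound 3, 4 and 6 it was 5.75, 6.15 and 15.7. Skin 1, wound 6 and skin 2 thus had the largest SDs, and the detected 3p arms described below had their lowest levels on the same arrays. Any link between the SD and the levels was not tested.

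Detection differed in pattern between the arms. Of the 16 members that were 5p arms, 5 were detected, on skin 2 (4 members) and skin 5 (5 members) and on none of the other arrays. The version-tagged miR-466c-5p, not counted here, was above background on 5 arrays, wound arrays included. Of the 13 members that were 3p arms, 8 were detected, with 4, 3 and 8 on skin 1, 2 and 5 and 5, 6 and 3 on wound 3, 4 and 6. Of the 9 names without an arm 4 were detected, 3 of them on all arrays. The counts have no test, since the members share a library on each array.

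**Figure D1:**
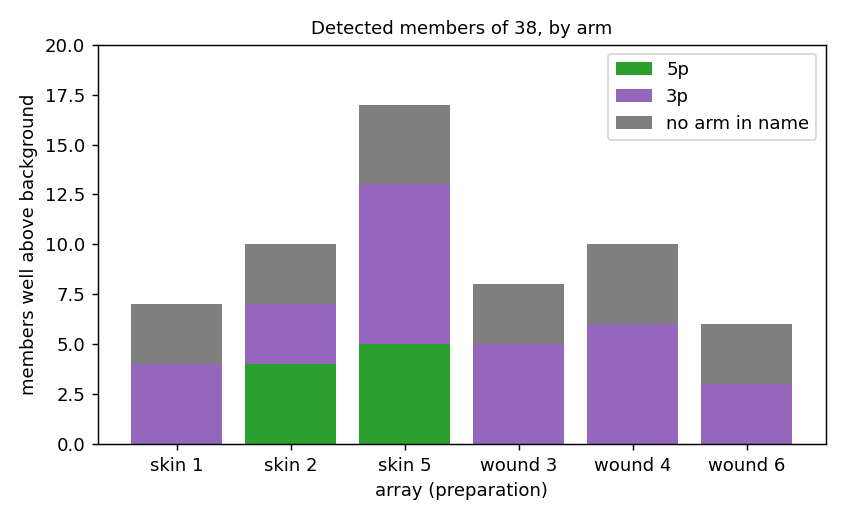
Number of the 38 members well above background on each array, stacked by the arm in the name. All 17 were detected on skin 5, and the 5p arms appear on skin 2 and skin 5 only.

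By family, 1 of 3 members of miR-297, 4 of 12 of miR-466, 5 of 10 of miR-467 and 7 of 13 of miR-669 were detected. Within miR-467 the arms were split completely: 0 of 5 members that were 5p arms were detected, against 3 of 3 that were 3p arms and 2 of 2 without an arm in the name. Within miR-669 the split ran the other way, with 4 of 5 members of the 5p arm, 2 of 4 of the 3p arm and 1 of 4 without an arm. The miR-466 family had 1 of 4, 2 of 5 and 1 of 3, and miR-297 had 0 of 2 and 1 of 1 for its 5p and 3p arms.

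Members of the miR-466 family detected on every array were miR-466f-3p, miR-466g and miR-466i-3p. The level of miR-466f-3p was 2.39%, 2.37% and 13.5% on skin 1, 2 and 5 and 6.46%, 7.12% and 1.50% on wound 3, 4 and 6. For miR-466g the levels were 4.04%, 2.29% and 12.5% in skin and 6.94%, 6.93% and 1.73% in wound, in the same order. For miR-466i-3p they were 3.87%, 2.80% and 13.3% in skin and 7.58%, 7.47% and 2.08% in wound. In all 3, skin 5 was the highest of the 6 arrays and wound 6 the lowest, wound 3 and 4 lay close together between them, and the groups overlapped. In intensity units miR-466f-3p reached 239.5 on skin 5 and 17.1 on wound 6.

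The remaining detected member of this family, miR-466h-5p, gave 1.17%, 1.83% and 2.35% in skin and 1.14%, 1.33% and 0.567% in wound. It was above background on skin 2 and skin 5 only, and its groups overlapped through skin 1.

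In the miR-467 family, miR-467f was detected on every array, at 5.59%, 5.70% and 17.7% in skin and 12.3%, 12.0% and 4.71% in wound. Its order of arrays was that of miR-466f-3p in having skin 5 at the top and wound 6 at the bottom. The other detected members fell to the background on several arrays: miR-467b-3p and miR-467d-3p were above it on skin 5, wound 3 and wound 4, and miR-467e-3p and miR-467g on skin 5 and wound 4.

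The level of miR-467b-3p was 0.639%, 1.41% and 6.06% in skin and 2.87%, 3.82% and 0.325% in wound. For miR-467d-3p the levels were 0.745%, 1.21% and 8.23% in skin and 3.52%, 3.92% and 0.638% in wound. All 4 were highest on skin 5 and lowest on wound 6. For miR-467e-3p they were 0.639%, 0.659% and 4.72% in skin and 2.69%, 2.25% and 0.487% in wound. For miR-467g they were 0.544%, 0.607% and 5.83% in skin and 2.50%, 2.47% and 0.267% in wound. The wound 3 and wound 4 values of each exceeded those of skin 1 and skin 2, as for 56.2% of all names detected on at least 1 array. Wound 6 lay below both skin 1 and skin 2 for all 4. None of the 4 was above background on skin 1, skin 2 or wound 6.

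In the miR-669 family, miR-669f-3p and miR-669n were detected on every array. The level of miR-669f-3p was 3.50%, 3.47% and 11.3% in skin and 8.47%, 8.46% and 4.61% in wound. It was the only one of the 17 whose lowest array was not wound 6, since skin 1 and skin 2 lay below that array. The level of miR-669n was 4.97%, 8.48% and 10.4% in skin and 6.99%, 6.91% and 3.22% in wound. Here skin 2 as well as skin 5 exceeded every wound array, and skin 1 did not. The level of miR-669h-3p was 2.62%, 0.697% and 5.95% in skin and 3.30%, 2.89% and 0.570% in wound, and it was above background on skin 1 and skin 5.

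The 5p arms of this family among the 38 members were detected on skin arrays only. The level of miR-669b-5p was 0.931%, 3.03% and 4.52% in skin and 1.31%, 0.985% and 0.537% in wound. For miR-669e-5p it was 1.43%, 4.31% and 4.49% in skin and 2.10%, 1.72% and 1.08% in wound. Both stood higher on skin 2 and skin 5 than on the other arrays. For miR-669l-5p it was 2.03%, 3.22% and 2.96% in skin and 2.41%, 2.33% and 1.41% in wound. For miR-669o-5p it was 1.10%, 1.73% and 1.70% in skin and 1.37%, 1.25% and 0.643% in wound. These last had their highest value on skin 2, by a small margin over skin 5. In all 4 the skin 1 value lay within the range of the wound arrays, so the groups overlapped.

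The detected member of miR-297, miR-297a-3p, was above background on skin 5 alone. Its levels were 0.249%, 0.246% and 2.02% in skin and 0.812%, 0.742% and -0.0273% in wound.

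**Figure D2:**
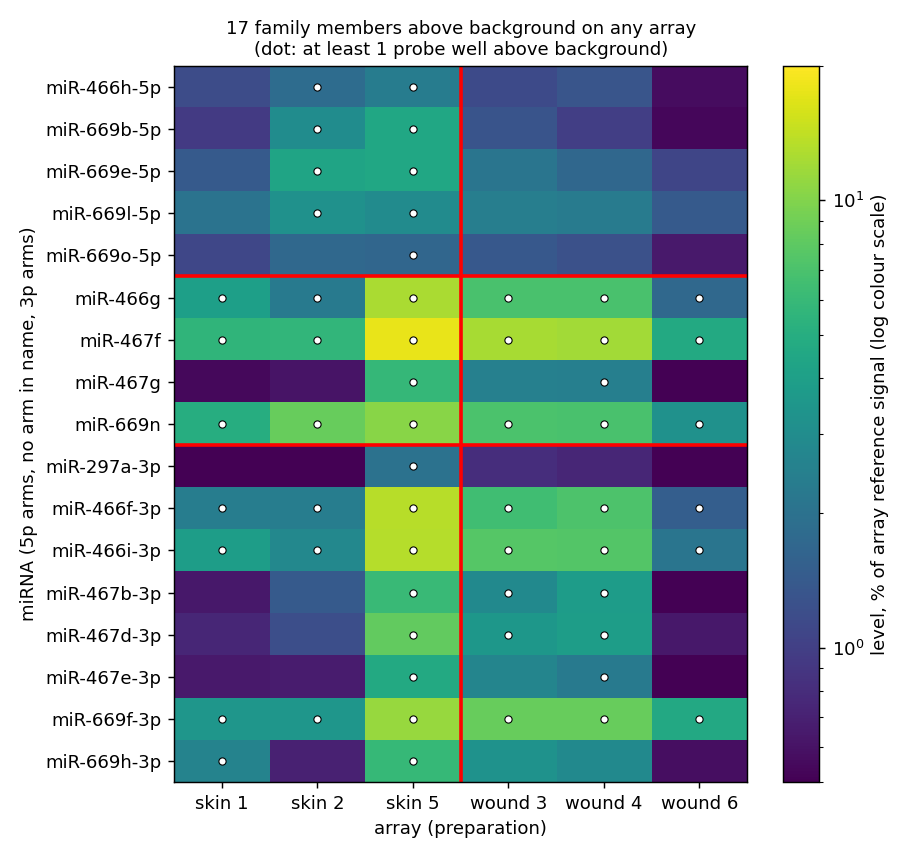
Level of the 17 members detected on at least 1 array, as a percentage of the array's reference signal on a log colour scale, with a dot where the member was well above background; colours stop at the ends of the scale. Rows are grouped by arm, and the columns of skin 5 and wound 6 hold the highest and lowest values of most rows; skin 5 is highest for 8 of 8 of the 3p arms and 3 of 5 of the 5p arms, and wound 6 lowest for 7 of 8 and 5 of 5.

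Skin 5 held the highest level of 15 of the 17 detected members, against 19.7% of all names detected on at least 1 array. Wound 6 held the lowest level of 16 of the 17, against 28.5%, and 14 members had both, against 14.6%. These counts were chosen after the values were seen and are a description. By arm, skin 5 was highest for 8 of 8 members of the 3p arm, 3 of 5 of the 5p arm and 4 of 4 without an arm. Wound 6 was lowest for 7 of 8, 5 of 5 and 4 of 4. The order depended little on the factor used for scaling: without any scaling 17 members were highest on skin 5 (50.7% of all detected names) and 16 lowest on wound 6 (12.8%), and with the 75th percentile of all probes the counts were 14 (12.0%) and 16 (12.8%).

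The excess on skin 5 differed in size between the arms. Divided by the mean of skin 1 and skin 2, the skin 5 level was 3.24 to 8.44 times for the 3p arms (median 5.79) and 1.13 to 2.28 times for the 5p arms (median 1.56). Over all 17 members the ratio ran from 1.13 to 10.1 with a median of 3.59, and over the 274 detected names the median was 1.03. A ratio over 2 was found for 12 of the 17 members and for 25 of the 274 names, members included. Where a member was below background on skin 1 and 2, its ratio rests on values near the background.

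Another difference between the arms lay in the order of the other arrays. In wound 3 and wound 4 the levels exceeded those of both skin 1 and skin 2 for 8 of 8 members of the 3p arm, 0 of 5 of the 5p arm and 3 of 4 without an arm (miR-466g, miR-467f and miR-467g), against 56.2% of all detected names. Skin 2 exceeded every wound array for 5 of 5 members of the 5p arm, 0 of 8 of the 3p arm and miR-669n, against 32.5%. Of the 3 G- and U-rich members with a sequence, miR-669n alone was detected, and it had the order of the 5p arms. The A- and C-rich miR-466i-3p, miR-467f and miR-467g had that of the 3p arms, so the comparison by sequence has 1 name on the G- and U-rich side. Both counts were chosen after the values were seen, and the difference between the arms was not tested. The 5 members of the 5p arm were detected only on skin 2 and skin 5. That detection favours an order with skin 2 above the wound arrays, so the count of 5 of 5 is no separate finding. Likewise, miR-467b-3p and miR-467d-3p were detected on wound 3 and wound 4 but not on skin 1 or skin 2.

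The preparations of a group were close to each other over most of the array. Over the 156 names detected on every array, the median absolute log2 difference between skin 5 and skin 1 was 0.21, and over the 6 members among them it was 1.68. Between wound 6 and wound 3 the medians were 0.13 and 1.62, and between wound 3 and wound 4 they were 0.14 and 0.02. Over the 156 names, the medians of the 6 pairs within groups ran from 0.13 to 0.27, so that wound 3 and wound 4 were much alike for these members but not identical over the array. The summed level of the 17 members was 36.5%, 44.1% and 127.5% on skin 1, 2 and 5 and 72.7%, 72.6% and 24.4% on wound 3, 4 and 6. The keratinocyte sum on skin 5 lay between those of skin 1 and skin 2. No marker list was highest on skin 5 and lowest on wound 6.

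Most probes of the detected members had the pattern, though not all probes of each name. The 17 detected members were measured by 47 probes, of which 44 were highest on skin 5 and 40 lowest on wound 6. The shares over all probes of the array were not counted. Of miR-669e-5p and miR-669o-5p, 1 of 2 probes each was highest on skin 5, and of miR-467e-3p, 2 of 4 were lowest on wound 6. For the 6 members detected on every array the counts were 16 and 13 of 16 probes. The spots of these probes gave a median coefficient of variation of 10.7% over 75 pairs of probe and array, and at most 12.6% on skin 5. Probes of 1 name may pick up each other's relatives and are not independent measurements.

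The comparison of wound with skin asked which miRNAs changed between resident dermal cells and wound cells of the same reporter. A miRNA was tested when the 3 arrays of either group each measured a probe well above background; 222 names passed, 6 of them members. The 11 members detected on fewer arrays did not pass, so no call was made for them. By limma with Benjamini-Hochberg adjustment at 0.05, 64.9% of the tested names were called, 44.1% higher and 20.7% lower in wound. That split of 98 higher and 46 lower names depended on the scaling: it was 52 and 76 with the 75th percentile of all probes, 66 and 66 with median scaling, 70 and 67 with quantile normalization and 54 and 54 without scaling. Of the 6 members 0 were called, 0 had an unadjusted p under 0.05, and 0 had groups that did not overlap, against 69.8% of the tested names. The median difference of the 6 was 0.05 on the log2 scale, against 0.38 over all tested names.

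The test used log2 levels with a lower limit of 2.53% (log2 of -5.30), here called the floor, which narrowed the range of the lowest values. The floor replaced skin 1, skin 2 and wound 6 of miR-466f-3p, skin 2 and wound 6 of miR-466g, and wound 6 of miR-466i-3p. By limma, the wound minus skin difference of miR-466f-3p was 0.14 ± 0.84 (SE), with a 95% confidence interval of -2.04 to 2.32 and an adjusted p of 0.928. For miR-466g it was -0.02 ± 0.75 (-1.97 to 1.93, adjusted p = 1). For miR-466i-3p it was -0.002 ± 0.78 (-2.01 to 2.01, adjusted p = 1). These intervals held changes of 4-fold in either direction for miR-466f-3p and miR-466i-3p, so that neither a rise nor a fall of that size was distinguishable at 3 arrays a group.

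The remaining differences were estimated more closely. For miR-467f the difference was 0.10 ± 0.64 (-1.57 to 1.76, adjusted p = 0.934), and for miR-669f-3p it was 0.42 ± 0.57 (-1.06 to 1.91, adjusted p = 0.559). The value of miR-669n was -0.50 ± 0.44 (-1.64 to 0.64, adjusted p = 0.367), or -0.88 relative to the median of all tested names. An exact permutation test of 3 against 3 arrays cannot give a two-sided p below 0.1.

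**Figure D3:**
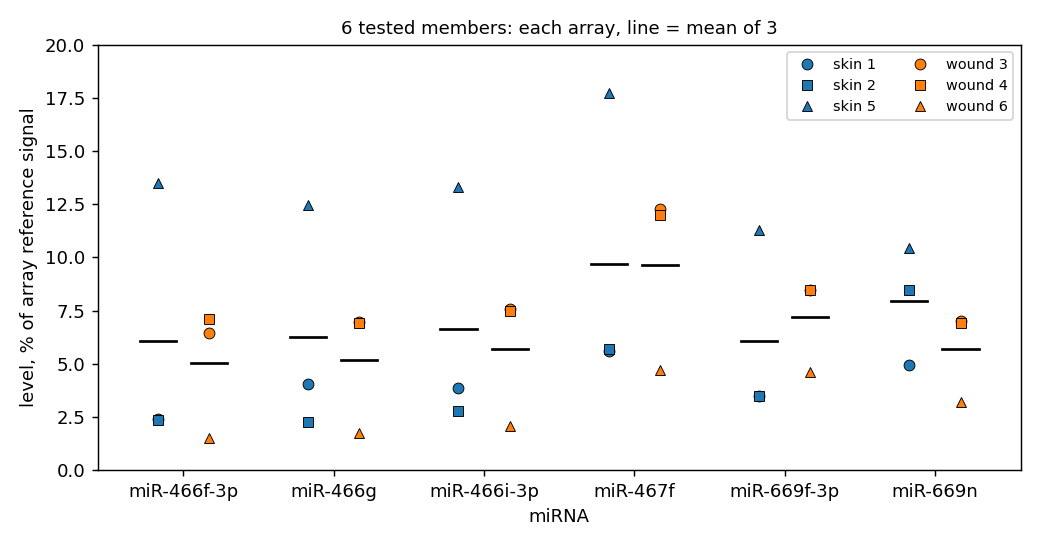
Level of the 6 tested members on each array as a percentage of the array's reference signal, with symbols for preparations and lines at the mean of 3 arrays. Skin 5 is the highest point of each member, and the points of skin and wound overlap for all 6.

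The spread between preparations of these members was among the largest on the array. The pooled within-group SD of the 6 members lay between 0.60 and 1.14 on the log2 scale, against a median of 0.15 over the 222 tested names. All 6 were among the 10 tested names with the largest SD. The SD of skin alone was 1.39 for miR-466f-3p, 0.95 for miR-467f and 0.55 for miR-669n, and that of wound was 0.82, 0.79 and 0.64.

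The direction of the differences turned with the arrays compared. On the first row of the slide (skin 1, skin 2 and wound 3), the wound minus skin difference was 1.35 for miR-466f-3p, 1.12 for miR-466g, 1.20 for miR-466i-3p, 1.12 for miR-467f, 1.28 for miR-669f-3p and 0.11 for miR-669n. On the second row (wound 4, skin 5 and wound 6) it was -1.67, -1.57, -1.61, -1.24, -0.85 and -1.15 for the same members in that order. All 6 were higher in wound on the first row and lower on the second. Each row held both groups, and these values have no test. The row was read as the first number of the array position. With the row as a block, limma gave differences between -0.52 and 0.21 and adjusted p-values of 0.453 to 0.985.

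Leaving out a single array moved these values further. Without skin 5, the limma differences were 0.95, 0.63, 0.67, 0.65, 0.99 and -0.27 in the same order, with adjusted p-values of 0.210, 0.410, 0.401, 0.342, 0.0689 and 0.669. Without wound 6 they were 0.61, 0.46, 0.52, 0.55, 0.72 and -0.13, with adjusted p-values from 0.406 to 0.792. In neither case was a tested member called. Without skin 1, 10 members could be tested and 2 of them, miR-669e-5p and miR-669l-5p, passed the threshold as lower in wound, where 22.5% of tested names did. Both were above background on skin 2 and skin 5 and on 0 wound arrays, so they entered this test only through the arrays where they were high, and the direction was fixed by that filter. Their limma differences were -0.79 ± 0.03 (SE; adjusted p = 0.000168) and -0.28 ± 0.05 (adjusted p = 0.0109). All 3 wound values of both also lay under the floor, so these differences run from the floor and not from measured wound levels, and their SE covers the 2 remaining skin arrays only.

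**Figure D4:**
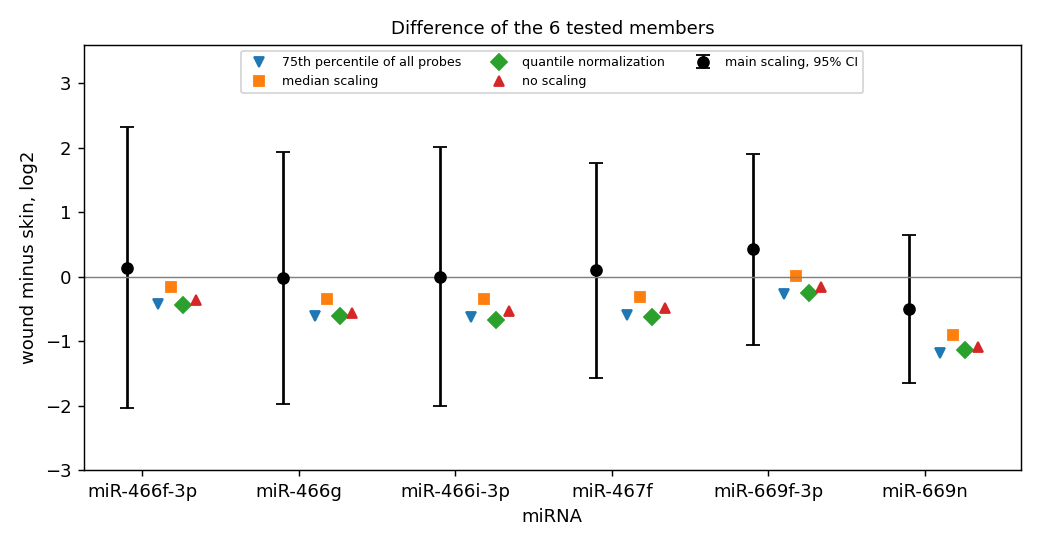
Wound minus skin difference of the 6 tested members on the log2 scale, with the 95% confidence interval of the limma fit in black and the value under 4 other scalings in colour. The interval crosses 0 for each member under the scaling used, and the other scalings shift every value downwards.

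Scaling moved all members together. With the 75th percentile of all probes the median difference over all tested names was -0.19 in place of 0.38, and the member differences ran from -1.18 for miR-669n to -0.26 for miR-669f-3p. In that setting miR-669n was called lower in wound (adjusted p = 0.0216), as it was with quantile normalization (-1.13, adjusted p = 0.0282) and after normexp background correction (-0.31, adjusted p = 0.0117). The other 5 tested members were called under none of these scalings and corrections. Over all names, 76 of 222 were called lower with the 75th percentile of all probes, 67 with quantile normalization and 67 after normexp.

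Detected miRNAs of other families that hold ACACAC or UGUGUG were set beside the members, a comparison chosen after the values were seen. They are 7 in number, 3 with ACACAC and 4 with UGUGUG. The sequences of miR-574-3p and miR-1187 are shown because these had the members' order of arrays and were above background on every array; capitals mark the repeats searched.
miR-574-3p: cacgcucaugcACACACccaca
miR-1187: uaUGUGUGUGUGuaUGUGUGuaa

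The level of miR-574-3p was 4.42%, 5.30% and 14.7% in skin and 9.09%, 8.99% and 2.61% in wound, again highest on skin 5 and lowest on wound 6. Its within-group SD was 0.99 and its limma difference -0.23 ± 0.73 (SE; adjusted p = 0.824). The level of miR-1187 was 7.13%, 10.4% and 11.9% in skin and 8.46%, 8.69% and 4.83% in wound, with skin 2 and skin 5 above every wound array, as for miR-669n. The same held for miR-672-5p (UGUGUG; above background on 2 arrays), which ran from 0.918% on wound 6 to 3.28% on skin 5, and for miR-574-5p (UGUGUG), which ran from 13.7% on wound 6 to 20.9% on skin 2. In let-7b-5p (UGUGUG) skin 2 and skin 5 also exceeded every wound array, as did skin 1, and its groups did not overlap: 791%, 875% and 864% in skin and 493%, 542% and 464% in wound (limma difference -0.76, adjusted p = 0.000600). Both miR-329-3p and miR-362-3p, with ACACAC near the 5′ end, were higher in wound (limma differences 3.07 and 0.93, adjusted p = 5.31e-07 and 0.00725) and highest on wound 3. The within-group SD of miR-329-3p was 0.03. Of 6 other array names with AUACAC 4 were detected, and 0 of these were highest on skin 5. Of the 7 names, 3 were highest on skin 5 and lowest on wound 6 (miR-574-3p, miR-1187 and miR-672-5p).

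Of the 3 version-tagged names of the same families, 1, miR-466b-5p, was detected on no array. Above background, miR-466c-5p was found on 5 arrays and miR-669a on 6, so both were detected in wound as well as in skin. The level of miR-466c-5p was 2.91%, 5.22% and 5.52% in skin and 4.05%, 3.54% and 2.06% in wound. The level of miR-669a was 3.38%, 6.35% and 7.49% in skin and 4.57%, 4.70% and 3.00% in wound. Both were highest on skin 5 and lowest on wound 6, with skin 2 above every wound array, the order of the 5p arms. Their limma differences were -0.40 ± 0.32 and -0.44 ± 0.37 (SE; adjusted p = 0.329 and 0.346).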

How the data were processed

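Per the labels, Cy3-labelled RNA of 6 preparations was hybridised to 1-colour Agilent miRNA arrays, which share 1 slide. Agilent Feature Extraction 10.7.3.1 read the spots, per the file headers. Intensity in the deposited scanner files is background-subtracted and was not normalized between arrays. The authors' deposited table holds log2 values; how they were made was not stated in the labels or headers used here. Its column numbers match no array title by value, so it served as an alternative only, and 0 other sample columns were left unused.

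Spots without outlier flags were averaged per probe, divided by the array's 75th percentile among the 275 probes that every array measured well above background, averaged over probes, raised to a floor of 0.0253 (the typical lowest signal that an array flagged well above background, by the median) for tests only, and taken to log2. Control spots were not used, and saturation affected 0 spots. limma 3.58.1 (R 4.3.3, lmFit and eBayes, two-sided) compared 3 wound with 3 skin arrays, with Benjamini-Hochberg adjustment over 222 names at 0.05. The number of arrays limits the precision. The script was tested on simulated data. All members above background on an array are named. Members, lists and alternatives were chosen with earlier results of these data known. Alternatives covered scaling, background correction, floor, filter, probe summary, slide row, array weights, each array left out and the authors' table. Figures were drawn with matplotlib 3.10.9.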

Additional observations from a re-analysis of the deposited data

How the results depend on the processing

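No paired analysis was possible because the groups share no replicate number. In the 25 alternatives given, 0 members were called higher, and members were called lower in 4: 1 (miR-669n) with the 75th percentile of all probes, quantile normalization or normexp, and 2 without skin 1 (0 to 2 over the arrays left out). Those 2, miR-669e-5p and miR-669l-5p, passed the filter only through skin 2 and skin 5, where they were high. Their direction was thus fixed by the filter and is no finding. Over all names, 76, 67 and 67 of 222 were called lower in the settings that called miR-669n, in the order given, and 53 of 236 without skin 1. A fit without both skin 5 and wound 6, tried after the values were seen, is not reported, since it chooses arrays by the outcome measured.

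Over all tested names 98 were higher and 46 lower. The higher count was 52 with the 75th percentile of all probes, 54 without scaling, 44 with a floor 4 times as high, 59 of the names above background on all 6 arrays (fewer were tested) and 0 with the authors' columns by number, which mix the groups by value; the lower count was 76 in the first and 0 in the last of these.

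Differences changed sign in many settings, all without a call. In the order miR-466f-3p, miR-467f and miR-669f-3p, they were -0.43, -0.59 and -0.26 with the 75th percentile of all probes, -0.37, -0.48 and -0.16 without scaling, and -0.43, -0.63 and -0.25 with quantile normalization. They were -0.19, -0.22 and -0.10 with normexp, -0.60, -0.41 and -0.077 with array weights, -0.14, -0.10 and -0.052 with the higher floor, and -0.69, -0.35 and -0.026 with the authors' columns by values. Within slide row 2 they were -1.67, -1.24 and -0.85. For miR-466f-3p and miR-467f alone they were -0.16 and -0.31 with median scaling, -0.16 and -0.058 with the row as a block, -0.39 and -0.055 with the total signal, and -0.27 and -0.045 with the authors' columns by number; miR-466f-3p gave -0.049 with a floor 4 times as low. With outlier spots kept miR-466g was 0.0027 and miR-466i-3p 0.0065, and within slide row 1 they were 1.12 and 1.20, with miR-669n at 0.11. Over the arrays left out, the ranges were -0.26 to 0.95 (miR-466f-3p), -0.52 to 0.63 (miR-466g), -0.45 to 0.67 (miR-466i-3p) and -0.18 to 0.65 (miR-467f). The cause was not tested. Signal limits the dim members: 11 of the 17 detected were at background on some arrays.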

Other observations

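Other rules for calling a spot well above background changed the number of detected members. With the flag required on all spots of a probe 17 members were detected on at least 1 array and 2 on all 6; with any spot enough the counts were 25 and 6, and with the scanner's flag per miRNA they were 23 and 6. On skin 5 these rules gave 17, 22 and 22 members and on wound 6 they gave 2, 6 and 7, so that skin 5 held the highest count and wound 6 the lowest under each of the 3 rules.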
